A study of Mus musculus with 8 samples.

Results

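The transcripts described here are 9 RNAs read from the mouse mitochondrial genome: the mRNAs mt-Nd1, mt-Nd2, mt-Co1, mt-Nd4, mt-Nd5, mt-Nd6 and mt-Cytb, and the ribosomal RNAs mt-Rnr1 and mt-Rnr2. They were chosen by their counts, as the messenger and ribosomal RNA genes of the mitochondrial chromosome that hold counts in the deposited table. The table lists 39017 gene identifiers, 37 of them on that chromosome. The counted RNA of lowest total is mt-Nd6, with 723197 counts over all libraries. Just outside the choice lie mt-Tp, a transfer RNA gene with 22146 counts in all, and mt-Nd3, the highest of the other protein genes with 8 counts in all.

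The cells were mouse embryonic fibroblasts of E13.5 embryos, either control or deleted for Mettl3, the catalytic subunit of the enzyme that writes m6A on mRNA. Per the labels, 48 h in 500 nM 4-hydroxytamoxifen activated a Cre recombinase that removed Mettl3, and cells were collected the day after loss was checked at 7 days. Whether control cells carried the same alleles or received the drug is not given in the sources used here. The total fraction was RNA of unstressed cells, whereas granule RNA was spun down from cells after 30 min in 500 µM sodium arsenite, a treatment that makes stress granules form. Both fractions were selected on oligo(dT) beads. The 4 groups (control total, knockout total, control granule and knockout granule) hold 2 libraries each, labelled as replicates. Nothing says that the libraries of a group came from separate embryos, so p-values measure the spread between these libraries. Arsenite and centrifugation both separate granule from total libraries, and their parts in any difference cannot be told apart. In bulk RNA, fewer mitochondria and less RNA per mitochondrion cannot be told apart either.

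Mitochondrial DNA is transcribed from both strands into long precursors, which are cut at the transfer RNAs that lie between most genes. The resulting mRNAs encode subunits of the respiratory chain and of ATP synthase and are translated inside the organelle on ribosomes built around mt-Rnr1 and mt-Rnr2. Most of these mRNAs end without an untranslated tail, and addition of A residues to the 3′ end completes the stop codon where the gene itself ends within it.

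The 3′ ends are shown because both fractions were captured through A tails. Positions are those of the GRCm38 build of chromosome M, and the last 30 bases of each annotated gene are printed 5′ to 3′ with the bases of the stop codon in capitals.
mt-Nd1, chrM:3678-3707, + strand: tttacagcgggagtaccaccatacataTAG
mt-Nd2, chrM:4922-4951, + strand: ctacccctagccccccaactaattaccTAG
mt-Co1, chrM:6843-6872, + strand: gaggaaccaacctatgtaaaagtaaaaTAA
mt-Nd4, chrM:11515-11544, + strand: gtccaaaactaattacaggcctgacaataT
mt-Nd5, chrM:13536-13565, + strand: attatcttatactcaattaatctcgagTAA
mt-Nd6, chrM:13552-13581, − strand: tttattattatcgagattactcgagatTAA
mt-Cytb, chrM:15259-15288, + strand: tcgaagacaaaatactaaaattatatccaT
mt-Rnr1, chrM:995-1024, + strand: aagcatactggaaagtgtgcttggaataat
mt-Rnr2, chrM:2646-2675, + strand: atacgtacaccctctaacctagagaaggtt
The annotated mt-Nd4 and mt-Cytb end on a lone T of the stop codon, and the other 5 mRNAs hold a whole one. The longest run of A inside a counted RNA is 8 bases, in mt-Nd2, and the shortest of these longest runs is 3 bases, in mt-Nd6. Within the rRNAs the longest runs are 5 bases in mt-Rnr1 and 7 bases in mt-Rnr2.

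Of the 13 protein genes of the mitochondrial genome, 7 held counts in quantity, and the other 6 held almost none. The genes mt-Co2, mt-Atp8 and mt-Nd4l had no count in any library, and mt-Atp6, mt-Co3 and mt-Nd3 had 2, 7 and 8 counts in all. Nuclear DNA carries copies of pieces of the mitochondrial genome, and a read that fits both places equally can be left uncounted. Each mitochondrial gene was therefore read in windows of 100 bases, and the share of windows that also occur, letter for letter, in an annotated nuclear transcript was counted. That share was 99.5% for mt-Co2, 99.5% for mt-Atp6, 99.9% for mt-Co3, 97.6% for mt-Nd3 and 98.5% for mt-Nd4l. It was 0% for 6 of the 9 counted RNAs, 3.20% for mt-Nd2, 30.8% for mt-Co1 and 60.8% for mt-Nd4. The exception was mt-Atp8, which shared no window with an annotated transcript and still had no count. How multi-mapped reads were counted is not given in the sources used here, and its part in these zeros was not tested.

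**Figure D1:**
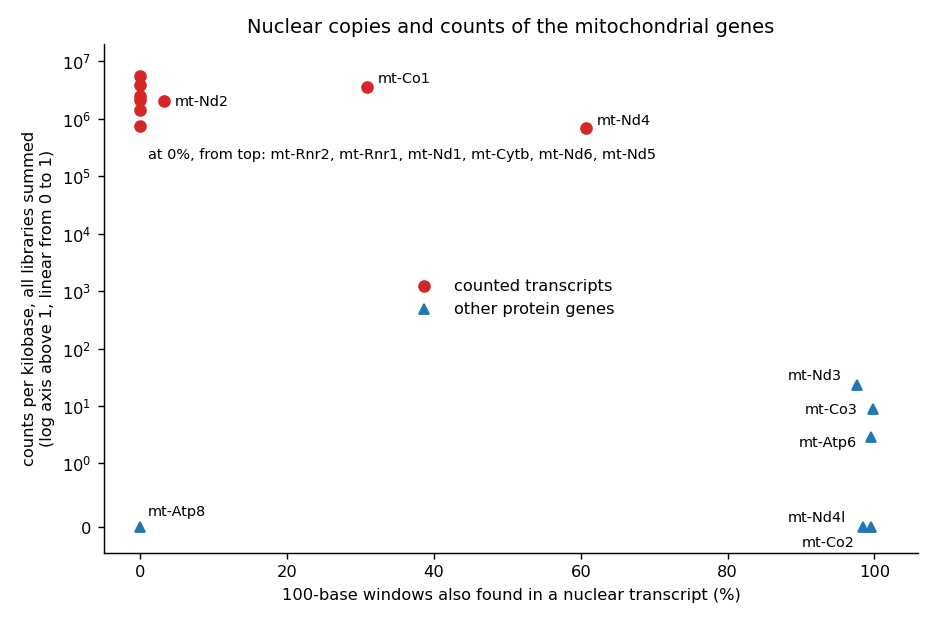
Each point is 1 mitochondrial gene, with the share of its 100-base windows that also occur in a nuclear transcript on the x axis (%) and its counts per kilobase, summed over all 8 libraries, on the y axis. The 5 genes over 97% have at most 23.0 counts per kilobase, the 9 counted RNAs lie at 61% or less, and mt-Atp8 sits at 0 on both axes.

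Several of these copies lie side by side on chromosome 1, where 7 of them occupy chr1:24611535-24616197. The copy of mt-Co3 there is Gm28437, 783 bases long with no mismatch, and the first 60 bases of both are shown because they are the same.
mt-Co3, chrM:8607-8666, + strand: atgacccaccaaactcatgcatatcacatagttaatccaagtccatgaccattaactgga
Gm28437, chr1:24613912-24613971, − strand: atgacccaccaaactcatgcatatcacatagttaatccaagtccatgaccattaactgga
The copy of mt-Nd4, the pseudogene Gm28439, ends inside the gene. It matches the first 876 bases without a mismatch, and the last 502 bases of mt-Nd4 lie beyond it. The 60 bases around its end are printed with the part that only mt-Nd4 continues in capitals.
mt-Nd4, chrM:11013-11072, + strand: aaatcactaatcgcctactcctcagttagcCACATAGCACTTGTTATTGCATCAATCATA
Gm28439, chr1:24611535-24611564, − strand: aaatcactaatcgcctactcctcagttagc
For mt-Co1 the copy Gm29216 covers 483 bases at the 3′ end with 1 mismatch, A1066T counted from the first base of mt-Co1, which is in capitals below.
mt-Co1, chrM:6390-6420, + strand: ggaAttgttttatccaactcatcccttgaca
Gm29216, chr1:24616158-24616188, − strand: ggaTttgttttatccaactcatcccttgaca
Between the copies of mt-Atp6 and mt-Co2 on chromosome 1 lie 233 bases with no annotated transcript. The mitochondrial genome has the same 233 bases of distance there, and mt-Atp8, 204 bases long, begins in that stretch and ends inside mt-Atp6. The letters of the chromosome 1 stretch were not used here.

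Some nuclear copies have counts of their own in the table. Gm10222, a copy of mt-Nd4l without a mismatch over 294 bases, held 1285 counts over all libraries, whereas mt-Nd4l held none. Copies of the counted RNAs that are listed in the table held few counts beside them. Gm28439, the copy of mt-Nd4, is not listed there, so its counts could not be read. The same holds for Gm28437 and for the best matches of mt-Co2, mt-Atp6, mt-Atp8 and mt-Nd3. Gm13340, a copy of mt-Co1 on chromosome 2 with 97.6% identity over 1545 bases, held 1417 counts over all libraries against 5487134 for mt-Co1. Gm13339, which matches 510 bases of mt-Nd2 at 96.7% identity, held 70 counts. Gm11408, which matches all 519 bases of mt-Nd6 at 93.6% identity, held 57 counts. The best nuclear match of mt-Rnr1 was the shortest of the 9, with 80.3% identity over 66 bases, and that of mt-Nd1 had the lowest identity, 76.6% over 509 bases.

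Total counts per library ranged from 67257220 to 123508539. The 9 RNAs held at least 99.7% of the mitochondrial counts in every library, and the half-width of a 95% Wilson interval on a summed share was at most 0.00451 percentage points, which covers counting error only. Mettl3 stood at 25.4 and 24.9 CPM (the count relative to the library's total, corrected by edgeR's trimmed-mean factors and called scaled CPM below) in control total RNA, at 6.0 and 7.35 in knockout total RNA, at 15.7 and 15.4 in control granules and at 5.56 and 6.38 in knockout granules, so every knockout library was below every control library. The labelled cell type was checked on its markers. Of 10 fibroblast markers all had counts, with Col1a1 at 1230 to 3970 and Vim at 999 to 3440 scaled CPM, but Pdgfra at only 1.39 to 3.47, Thy1 at 3.3 to 12.9 and Dcn at 8.01 to 18.3. The epithelial marker Epcam reached 1.61 at most and the neuronal marker Snap25 reached 0.0273 at most. Among blood cell markers Ptprc ranged from 16.7 to 41.8 scaled CPM, Hba-a1 from 5.61 to 17.7 and Hbb-bt from 2.57 to 11.1. Csf1r ranged from 2.02 to 5.04 and Adgre1 from 0.597 to 1.62. Among endothelial markers Kdr ranged from 3.44 to 14.1, Pecam1 from 2.2 to 4.99 and Cdh5 from 0.426 to 0.872. The summed scaled CPM of 4 neural markers was 3.19 and 3.61 in knockout granules and at most 0.466 in the other libraries, with Elavl3 reaching 3.38, and its part in the results on knockout granules was not tested. With no count, a gene of the smallest library lies under 0.0446 CPM, the worth of 3 counts. The median difference of a gene between replicates, in log2 and without sign, was 0.81 for knockout total, 0.31 for control total, 0.13 for knockout granule and 0.10 for control granule RNA. The difference of replicate 2 minus replicate 1 followed GC content across 10212 genes in both total groups, with Spearman rho 0.73 in the knockout (GC-rich genes higher in replicate 2) and −0.76 in the control (GC-rich genes higher in replicate 1). All results that rest on knockout total RNA are therefore given for each of its libraries.

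In control total RNA the level per kilobase of gene, in scaled CPM, was highest for mt-Co1, the core subunit of complex IV, at 1329 ± 56.4 (SD, n = 2). mt-Rnr2, the RNA of the large mitochondrial ribosomal subunit, followed at 959 ± 200, then mt-Nd1 of complex I at 868 ± 44.9, and mt-Rnr1, the RNA of the small subunit, at 784 ± 155. mt-Cytb, the cytochrome of complex III, stood at 742 ± 35.4 and mt-Nd2 of complex I at 684 ± 24.2. Well below them came 3 complex I mRNAs, mt-Nd6 at 296 ± 13.4, mt-Nd5 at 272 ± 14.1 and mt-Nd4 at 211 ± 2.65. The ranges of mt-Rnr2, mt-Nd1 and mt-Rnr1 overlapped, so these neighbours did not differ beyond their spread, mt-Cytb lay within the range of mt-Rnr1, and mt-Nd2 overlapped that range too. Counted over 1000 windows of 100 bases that no nuclear transcript shares, a scale chosen after seeing the data, mt-Nd4 stood at 579.8, mt-Co1 at 2053.1 and mt-Nd2 at 780.8. On that scale mt-Nd6 was at 365 and mt-Nd5 at 287, so mt-Nd4 no longer was the lowest.

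All 9 RNAs were higher in both knockout granule libraries than in both control granule libraries. Both rRNAs rose, mt-Rnr2 by 18.2-fold and mt-Rnr1 by 25.0-fold, and the 7 mRNAs stood 4.95- to 8.08-fold higher without passing the test. By edgeR's quasi-likelihood test with Benjamini-Hochberg adjustment over 18952 genes (called at adjusted p under 0.05), 2 of the 9 were called, both higher. Of all tested genes 9.45% were called in this comparison and 5.79% were called higher. Groups did not overlap, with the knockout higher, for 9 of the 9 RNAs and for 40.4% of all tested genes.

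mt-Rnr2 stood at 1597 and 2048 scaled CPM in the control granule libraries and at 25061 and 41178 in the knockout ones. Its log2 fold change was 4.18 with adjusted p = 0.0231 (edgeR, SE 0.82). mt-Rnr1 stood at 389 and 422 scaled CPM in control granules and at 7350 and 12969 in knockout granules. Its log2 fold change was 4.65 with adjusted p = 0.0252 (edgeR, SE 0.94). For both rRNAs the gap between the genotypes was wider than the gap between libraries of a genotype.

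Among the mRNAs, mt-Co1 came nearest to the threshold. It stood at 1399 and 1462 scaled CPM in control granules and at 10310 and 12795 in knockout granules. Its log2 fold change was 3.01 with adjusted p = 0.0584 (edgeR, SE 0.82). mt-Cytb stood at 829 and 962 in control granules and at 6482 and 7840 in knockout granules. Its log2 fold change was 3.0 with adjusted p = 0.0605 (edgeR, SE 0.83). Both fell just outside the call, and their groups did not overlap. mt-Nd6, the only one of these mRNAs encoded on the opposite strand, stood at 157 and 164 against 1075 and 1305. mt-Nd4 stood at 310 and 355 against 1935 and 2324, and mt-Nd1 at 698 and 836 against 3470 and 4559. mt-Nd2 stood at 393 and 431 against 1928 and 2389, and mt-Nd5 at 369 and 374 against 1723 and 1953. The adjusted p of these 5 complex I mRNAs lay between 0.121 for mt-Nd4 and 0.204 for mt-Nd2 (edgeR). By the same test 8 of the 9 RNAs had an unadjusted p under 0.05, beside 5291 of the 18952 tested genes.

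The calls, but not the sizes, depended on the fit. The model shares 1 estimate of spread over all 8 libraries, and the knockout total libraries are part of it. With only the granule groups in the fit, all 9 RNAs were called higher, beside 57.3% of all genes tested. Without knockout total replicate 1 all 9 were called, beside 39.0% of genes, and without knockout total replicate 2 again all 9, beside 38.9%. Leaving out any of the other 6 libraries ended both calls. In each of these fits a smaller share of all tested genes was called too than the 9.45% of the full fit. Over all 8 omissions the log2 fold change of mt-Rnr2 ranged from 3.77 to 4.45, that of mt-Rnr1 from 4.17 to 4.95 and that of mt-Co1 from 2.84 to 3.11. The 9 RNAs are poor in G and C, with 34.1% to 39.9% GC, and 4.64% of tested genes have as little. With the GC trend of each library removed, 8 of the 9 were called (mt-Nd2 at adjusted p = 0.0737 by edgeR), beside 24.0% of genes, and the log2 fold changes ran from 2.36 for mt-Nd5 to 4.64 for mt-Rnr1. DESeq2 on the same 18952 genes, a fit added after seeing the data, called 8 of the 9 higher, beside 17.8% of genes.

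**Figure D2:**
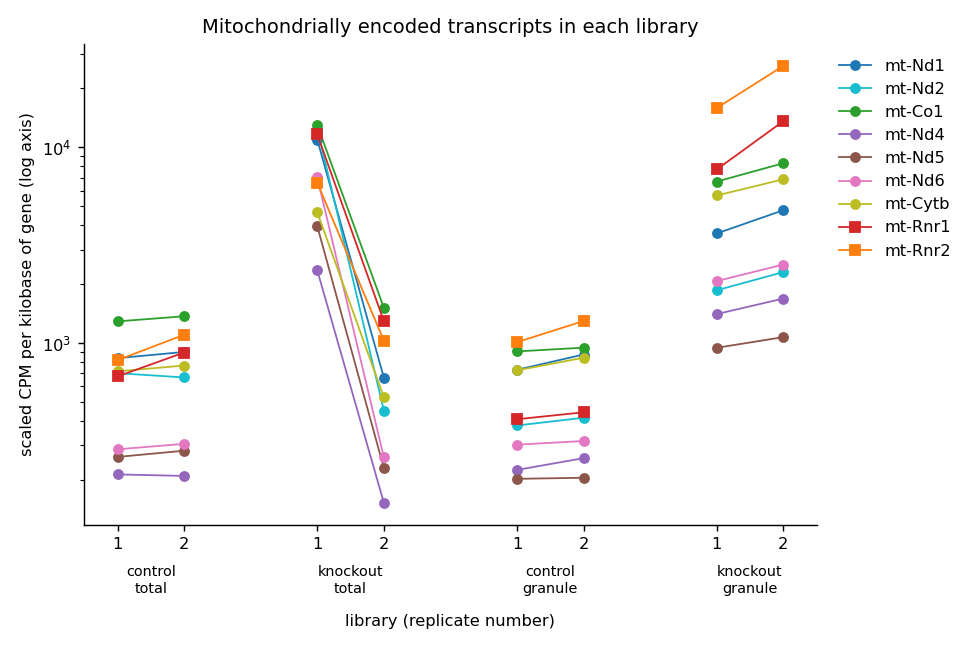
Scaled CPM per kilobase of gene (log axis) for the 9 RNAs in each of the 8 libraries, circles for mRNAs and squares for rRNAs; lines join the 2 libraries of a group and stand for no order. Knockout total replicate 1 and both knockout granule libraries lie above the other 5 libraries for each RNA.

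In total RNA the knockout libraries disagreed with each other. Every one of the 9 RNAs was 6.41- to 27.5-fold higher in knockout total replicate 1 than in replicate 2, and none was called against control. Of all tested genes 0.412% were called in this comparison. For mt-Nd2 the levels were 727 and 692 scaled CPM in control total RNA, 12912 in knockout replicate 1 and 469 in knockout replicate 2. For mt-Nd6 they were 149 and 158, then 3633 and 135. In both mRNAs the first knockout library was the highest of all 8 libraries and the second lay below both controls. For mt-Rnr1 the levels were 644 and 854 in control, then 11118 and 1233 in the knockout. For mt-Co1 they were 1991 and 2115, then 20034 and 2340. These 2 RNAs were the only ones of the 9 with both knockout total libraries above both controls, and groups did not overlap, with the knockout higher, for 24.4% of all tested genes.

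The fitted log2 fold changes in total RNA ran from 1.80 for mt-Cytb (SE 0.79) to 3.62 for mt-Nd6 (SE 1.16). The adjusted p lay between 0.143 and 0.205 (edgeR). By the same test the unadjusted p was under 0.05 for 8 of the 9, beside 4705 of the 18952 tested genes. These fold changes rest on knockout total replicate 1. Without it the log2 fold changes were −0.60 for mt-Nd2, −0.49 for mt-Cytb, −0.47 for mt-Nd4, −0.38 for mt-Nd1, −0.24 for mt-Nd5 and −0.18 for mt-Nd6. They were 0.72 for mt-Rnr1, 0.19 for mt-Co1 and 0.10 for mt-Rnr2, and 0 of the 9 were called, beside 5.52% of genes. Without replicate 2 all 9 were called, beside 47.8% of genes, with log2 fold changes from 2.75 for mt-Cytb to 4.67 for mt-Nd6. With the GC trend removed the values ran from 0.60 for mt-Cytb to 1.97 for mt-Nd6, and none was called. With no filter beyond 1 count edgeR called all 9 higher, beside 11.2% of 30351 genes, as did DESeq2, beside 7.73% of them. On the 18952 filtered genes DESeq2 called 8 of the 9, beside 12.9% of genes.

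Within the mRNAs the gap between the knockout total libraries tended to be wider where GC content was lower. It was 27.5-fold for mt-Nd2 (35.7% GC) and 26.9-fold for mt-Nd6 (34.1% GC), and 8.56-fold for mt-Co1 (39.9% GC) and 8.81-fold for mt-Cytb (39.1% GC). Against that order, mt-Nd4 (35.6% GC) differed 15.4-fold, less than mt-Nd5 (37.1% GC, 17.2-fold) and mt-Nd1 (37.6% GC, 16.4-fold). Over the 7 mRNAs Spearman's rho of GC content with this ratio was −0.71, a description of 1 pair of libraries. The rRNAs did not follow that order: mt-Rnr2, with 35.4% GC, differed 6.41-fold, the least of the 9, and over all 9 RNAs rho was −0.30.

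**Figure D3:**
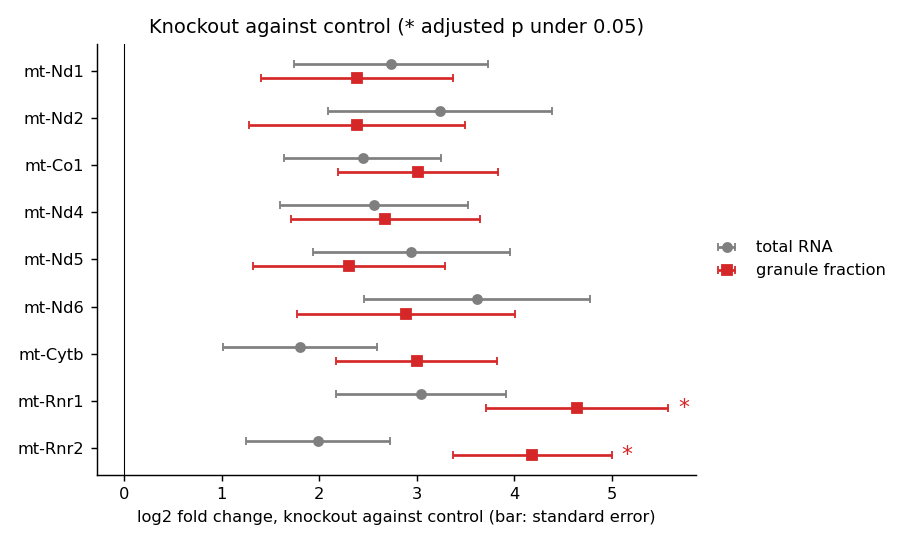
Log2 fold change of knockout against control for each RNA in total RNA (grey circles) and in the granule fraction (red squares), with the standard error from edgeR as bars and an asterisk at an adjusted p under 0.05. The asterisks stand at mt-Rnr1 and mt-Rnr2 in granules, and no RNA has one in total RNA.

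Between control granules and control total RNA none of the 9 was called, beside 10.1% of all tested genes called in either direction. Groups did not overlap with the granule lower for 4 of the 9 (mt-Nd2, mt-Co1, mt-Nd5 and mt-Rnr1) and with the granule higher for 1 of the 9 (mt-Nd4), beside 37.3% and 35.2% of all tested genes. mt-Rnr1 had the lowest value, 644 and 854 scaled CPM in total RNA against 389 and 422 in granules, or −0.88 in log2 fold change (adjusted p = 0.497 by edgeR, SE 0.81). mt-Rnr2 had the highest, 1293 and 1742 against 1597 and 2048, at 0.26 (SE 0.72, adjusted p = 0.836 by edgeR). With only the control groups in the fit mt-Nd2, mt-Co1 and mt-Rnr1 were called, all lower in granules, beside 42.4% of genes. With upper-quartile scaling the signs of mt-Nd4, mt-Nd6 and mt-Cytb turned, and with the GC trend removed those of mt-Rnr2 and the same 3 did, so their direction depends on the processing.

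Between knockout granules and knockout total RNA none was called either, beside 17.6% of all tested genes. mt-Rnr2 stood at 10413 and 1625 scaled CPM in total RNA and at 25061 and 41178 in granules, or 2.46 in log2 fold change (adjusted p = 0.0587 by edgeR, SE 0.76). mt-Nd2 had the lowest value, −1.63 (SE 1.08, adjusted p = 0.326 by edgeR). mt-Rnr2 and mt-Cytb were the 2 RNAs with both granule libraries above both total libraries, beside 31.5% of all tested genes. The direction for mt-Nd2 depended on which total library was kept, with 2.20 without knockout total replicate 1 and −2.71 without replicate 2. Without replicate 1 all 9 were called higher in granules, beside 34% of genes called. Without replicate 2 it was 1 higher of 7 called, beside 48.2% of genes.

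The test of the difference between genotypes in the granule to total ratio called none of the 9, beside 0.517% of all tested genes. The estimates ran from −0.85 for mt-Nd2 (SE 1.49) to 2.20 for mt-Rnr2 (SE 1.02, adjusted p = 0.216 by edgeR). Without knockout total replicate 1 all 9 were called higher, beside 18.6% of genes called. Without replicate 2 it was 1 higher of 6 called, beside 46.4% of genes.

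The rRNAs and the mRNAs did not move alike. In the knockout granules the 2 rRNAs held more counts than the 7 mRNAs, with 1.20 and 1.63 rRNA counts per mRNA count. In the other 6 libraries they did not. Counts are not scaled by gene length here, and the other 6 protein genes held almost none, so the ratio is one of counts, not of molecules. The ratio was 0.368 and 0.471 in control total RNA, 0.343 and 0.594 in knockout total RNA and 0.478 and 0.539 in control granules. The summed rRNAs held 3.36% and 5.46% of all counts of the knockout granule libraries, against 0.191% and 0.237% in control granules. The summed mRNAs held 2.79% and 3.34%, against 0.399% and 0.440%. On the log2 scale the knockout exceeded the control in granules by 2.78 for the summed mRNAs and by 1.47 for the ratio of rRNA to mRNA.

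In knockout total replicate 1 the mRNAs held 5.66% of all counts and the rRNAs 1.94%. The mRNAs held more counts than the rRNAs in both control total libraries too, and both sums were higher in this knockout library. The summed mRNAs stood at 62800 scaled CPM there against 5258 and 5505 in control total RNA. The summed rRNAs stood at 21530 against 1937 and 2595. In replicate 2 the mRNAs held 0.505% of all counts and the rRNAs 0.2999%. These shares were close to the 0.532% and 0.597% of mRNA and the 0.196% and 0.282% of rRNA in control total RNA. Like both knockout granule libraries, the first knockout total library thus exceeded every control library in both sums. Its summed mRNAs lay above those of the knockout granules (26920 and 33170 scaled CPM), and its summed rRNAs lay below theirs (32410 and 54150). It had the lowest rRNA to mRNA ratio of all 8 libraries.

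**Figure D4:**
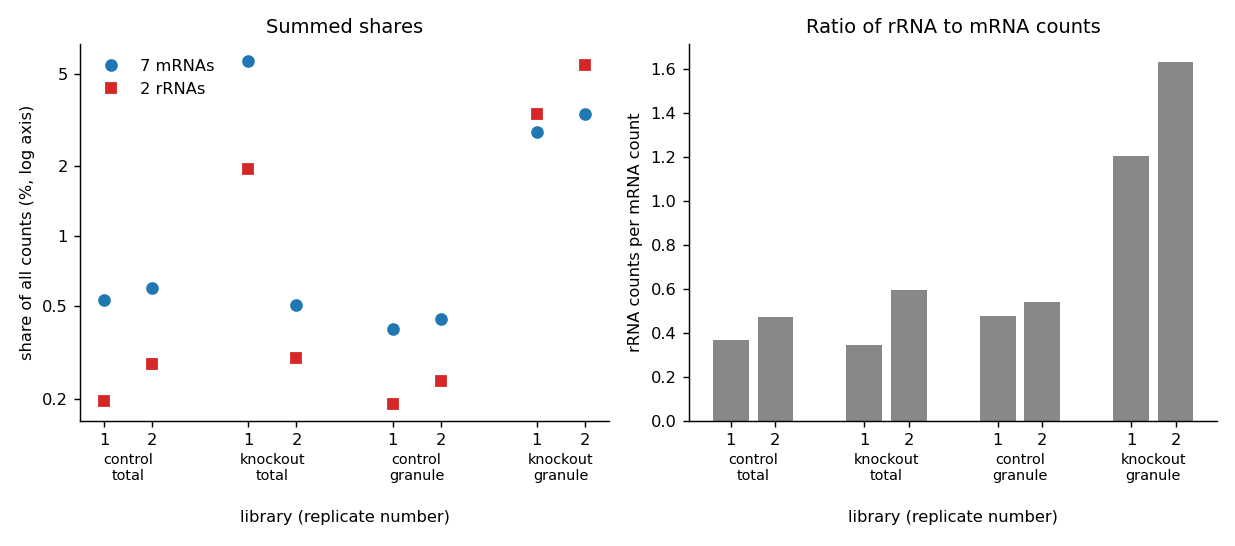
Left, the share of all counts held by the 7 mRNAs (circles) and the 2 rRNAs (squares) in each library (%, log axis); right, bars of rRNA counts per mRNA count, from 0. The ratio exceeds 1 in the knockout granule libraries, at 1.20 and 1.63, and is 0.594 or less elsewhere.

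The 2 rRNAs also differed from each other. mt-Rnr2 gave 4.10 and 4.85 counts per count of mt-Rnr1 in control granules and 3.41 and 3.18 in knockout granules. In total RNA the figure was 2.01 and 2.04 for control and 0.937 and 1.32 for knockout. Each granule library exceeded each total library, in both genotypes, and each knockout library was below each control library of its fraction. These ratios are taken within a library and do not depend on its scaling.

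Among the mRNAs the make-up shifted between fractions in the same direction in both genotypes for 4 of the 7. mt-Cytb took 15.6% and 15.9% of the summed mRNA counts in control total RNA and 19.96% and 20.98% in control granules. In the knockout it took 8.47% and 12.5% in total RNA and 24.1% and 23.6% in granules. mt-Nd4 took 5.58% and 5.24%, then 7.45% and 7.76% in the control, and 5.15% and 4.37%, then 7.19% and 7.01% in the knockout. Both thus took a larger share in every granule library than in every total library.

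The complex I mRNAs mt-Nd2 and mt-Nd5 went the other way. mt-Nd2 took 13.8% and 12.6% of the mRNA counts in control total RNA against 9.47% and 9.40% in control granules. In the knockout it took 20.6% and 9.74% in total RNA against 7.16% and 7.204% in granules. mt-Nd5 took 9.08% and 9.33% against 8.88% and 8.16% in the control, and 11.5% and 8.71% against 6.40% and 5.89% in the knockout. mt-Co1 was the largest share in every library, from 31.9% to 48.6%, and its shares overlapped between the knockout fractions.

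**Figure D5:**
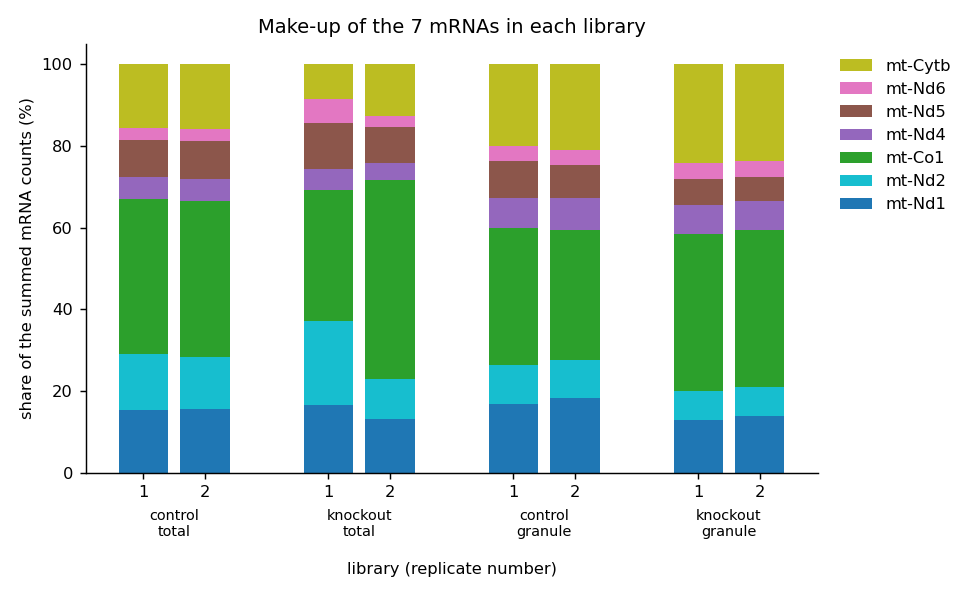
Stacked bars of the share (%) of each of the 7 mRNAs in their summed counts, for each library. The upper segment, mt-Cytb, is 19.96% to 24.1% in the 4 granule libraries and 8.47% to 15.9% in the 4 total libraries.

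mt-Nd6 lies end to end with mt-Nd5 on the opposite strand and overlaps it by 14 bases. The last 40 bases of mt-Nd5 are printed with the overlap in capitals.
mt-Nd5, chrM:13526-13565, + strand: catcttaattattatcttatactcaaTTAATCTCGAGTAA
mt-Nd6 gave 0.311 and 0.308 counts per count of mt-Nd5 in control total RNA and 0.504 and 0.323 in knockout total RNA. In granules the ratio was 0.425 and 0.438 for control and 0.624 and 0.668 for knockout, so in each fraction both knockout libraries exceeded both controls. Whether counting used strand is not given in the sources used here. Reads of mt-Nd6 and of RNA from the other strand that runs through the same bases can therefore not be told apart.

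Of the 22 mitochondrial transfer RNA genes, 16 had no count in any library, 3 had 1 to 50 counts in all and 3 had more. mt-Tp, the gene next to the control region at chrM:15356-15422 on the − strand, held nearly all of these counts. It stood at 23.0 and 23.4 scaled CPM in control total RNA and fell to 4.58 and 6.53 in control granules, or −2.06 in log2 fold change (adjusted p = 0.0442 by edgeR, SE 0.51). In knockout granules it stood at 35.0 and 42.2, a rise over control granules of 2.80 in log2 terms (adjusted p = 0.0208 by edgeR, SE 0.53). In knockout total RNA it stood at 65.1 and 20.4, so it too was higher in replicate 1.

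Nuclear genes supply most proteins of the organelle, among them the partners of the mitochondrial subunits. Of 76 nuclear subunits of the 5 respiratory complexes, 0 were called higher and 3 were called lower between knockout and control granules. Beside them, 9.45% of all tested genes were called in either direction and 5.79% were called higher. The median log2 fold change of the 76 was 0.02 against 0.08 over all tested genes. Sdha, the flavoprotein of complex II, fell from 326 and 294 to 93.7 and 84.7 scaled CPM (log2 fold change −1.80, adjusted p = 0.00871 by edgeR). Atp5b and Atp5a1, the catalytic core of ATP synthase, fell by 1.22 and by 1.21 on the log2 scale (adjusted p = 0.0301 and 0.0388 by edgeR). In total RNA these 3 were also lower in both knockout libraries than in both controls, beside 24.7% of all tested genes. Sdha stood there at 227 and 206 scaled CPM in control and at 103 and 125 in knockout. The summed scaled CPM of the 76 subunits was 10180 and 11780 in control granules and 9119 and 8974 in knockout granules. In total RNA none of the 76 was called in either direction, beside 0.412% of all tested genes, and their median was −0.59. That sum was 15300 and 12990 in control total RNA and 8039 and 11350 in the knockout, with the lower value in replicate 1, where the mitochondrial mRNAs were highest.

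Of 77 tested mRNAs for mitochondrial ribosomal proteins, the partners of mt-Rnr1 and mt-Rnr2, 2 were called higher and 1 lower between knockout and control granules. For this list and those below, the shares over all tested genes were 9.45% called in either direction and 5.79% called higher. Mrpl43 rose from 61.3 and 72.2 to 178 and 172 scaled CPM, and Mrps18b fell from 15.3 and 16.7 to 8.24 and 7.21. Mrpl46 rose from 19.3 and 21.2 to 43.0 and 42.5, and in total RNA too, from 22.9 and 19.5 to 41.0 and 37.5. In total RNA the values of Mrpl43 and of Mrps18b overlapped between the genotypes. Between the granules the median of the list was 0.13 on the log2 scale. Of 26 genes that process or stabilise mitochondrial RNA, 0 were called in either direction in this comparison, and their median was −0.27. Of 16 genes of mitochondrial transcription and replication, 1 was called, and their median was −0.24. Mterf4, a factor needed for assembly of the mitochondrial ribosome, rose from 6.57 and 7.19 to 19.1 and 19.9 scaled CPM. In total RNA Mterf4 stood at 8.13 and 8.4 in control and at 12.6 and 16.7 in knockout. Of 15 genes of mitochondrial protein quality control, 1 was called between the granules: the chaperonin Hspd1 fell from 657 and 648 to 286 and 282. The median of that list was −0.60, against 0.08 over all tested genes. Its groups did not overlap, with the knockout lower, for 13 of the 15, beside 36.6% of all tested genes. For the other 2 the knockout was higher without overlap, beside 40.4%. Of 7 regulators of mitochondrial biogenesis, 1 was called, the coactivator Ppargc1b, which was higher and is named though its mean lies under 5 CPM, and the median of that list was −0.23.

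Some nuclear genes had a pattern like that of the mitochondrial RNAs over the 8 libraries. Among the 10207 genes whose mean reached 5 CPM, Pearson correlation of log2 CPM with the mean of the 7 mRNAs was highest for Sept6 (0.996), Prdm8 (0.986), Fam50a (0.985), Dgkk (0.981) and B3glct (0.976). With the mean of the 2 rRNAs it was highest for Nudt2 (0.984), Dnajc25 (0.971), Plekhg1 (0.967), Sspn (0.967) and Frrs1 (0.966). Their swings were smaller: Sept6 stood at 32.1 and 32.4 scaled CPM in control total RNA, 57.5 and 29.3 in knockout total RNA, 31.8 and 30.7 in control granules and 45.5 and 48.5 in knockout granules. The points share the 8 libraries and their depth, and such correlations are a description. Among the 9 RNAs themselves the correlation ran from 0.823 to 0.997 between mRNAs and was 0.923 between the rRNAs. Between an mRNA and mt-Rnr1 it ran from 0.872 to 0.985, and between an mRNA and mt-Rnr2 from 0.714 to 0.977.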

How the data were processed

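Counts per Ensembl gene, deposited by the authors as raw whole numbers with 1 column per library, were analysed as they stand. The submitters' processing notes name STAR, DESeq2, GRCm38 and mm10. The counting program, strand setting and treatment of multi-mapped reads are not given in the sources used here. Names, positions and sequences came from GENCODE M21 (GRCm38), which matched 37693 of the 39017 identifiers. In R 4.3.3, edgeR 4.0.16 fitted 1 quasi-likelihood model of the 4 groups to all 8 libraries (trimmed-mean scaling, 4 residual degrees of freedom), tested 5 contrasts and adjusted p-values by Benjamini-Hochberg over 18952 genes. All 9 RNAs passed the expression filter. The fit was tested on simulated data with no GC trend and no group of discordant replicates, so that test does not bear on either. Log2 CPM uses a prior count of 2. Windows were compared with 141730 nuclear transcripts in place of a genome, which was not used here, and with BLAST 2.17.0. Alternatives were other scalings, filters and sample sets, GC correction, DESeq2 1.42.0, a replicate block and omission of each library. Genes outside the 9 are named by a rule: called, mean of at least 5 CPM, groups not overlapping, at most 2 per list, contrast and direction, plus the 5 most correlated genes. Ppargc1b, and Col1a1 among endoplasmic reticulum mRNAs, are outside it and were chosen after their values were seen. The members and lists were chosen with earlier results of these data known.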

Additional observations from a re-analysis of the deposited data

How the results depend on the processing

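In granules all 9 RNAs kept a higher level in the knockout under each of the 19 alternatives. The number called, 2 (9.45% of genes), was 9 with no filter beyond 1 count (11.2%) and 9 with only the groups compared (57.3%). It was 8 with the GC trend removed (24.0%) and 0 with the replicate block (3.54%). DESeq2 called 8 without the filter (9.95%) and 8 on the filtered genes (17.8%), a fit added after seeing the data. The calls also changed with the library left out. The labels number the replicates without saying that same-numbered libraries are paired. Deviations of same-numbered libraries correlated between −0.60 and 0.19 from group to group. That cannot decide on pairing, because the replicate difference followed GC content in both total groups. The block called no RNA in any contrast. In total RNA 0 called (0.412% of genes) became 9 with no filter (11.2%), 9 by DESeq2 (7.73%) and 8 by DESeq2 on the filtered genes (12.9%), and ranged from 0 to 9 over the left-out libraries, with 9 without knockout total replicate 2 (47.8%) and 0 without any other library. In knockout granules against knockout total RNA 0 called (17.6%) became 1 by library size alone (16.3%) and 4 with no filter (17%). It was 1 with the GC trend removed (32.5%), 1 by DESeq2 without the filter (15.3%) and 1 by DESeq2 on the filtered genes (26.9%). In control granules against control total RNA 0 called (10.1%) became 3 with only the groups compared (42.4%) and 1 with the GC trend removed (20.2%). For the difference between genotypes 0 called (0.517%) became 2 with no filter (11.5%) and 2 with the GC trend removed (9.82%). In each of these comparisons the calls also changed with the library left out. The cause was not tested. Where a library was left out, the lone library of its group is assumed to vary like the others.

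With all libraries kept, signs turned in 3 comparisons. Between control fractions, mt-Rnr2 was −1.05, mt-Nd4 −1.16, mt-Nd6 −1.37 and mt-Cytb −1.0 with the GC trend removed; mt-Nd4, mt-Nd6 and mt-Cytb were −0.04, −0.17 and −0.15 by upper quartile; and mt-Nd6 and mt-Cytb were −0.06 and −0.05 both by library size alone and with a mean of at least 5 CPM. In the difference between genotypes mt-Nd2 was 0.71, mt-Nd1 1.09, mt-Nd5 0.83 and mt-Nd6 0.85 with the GC trend removed, and mt-Nd4 was −0.08 with no filter. Between knockout fractions mt-Co1 was −0.09 with no filter and −0.05 with only the groups compared. Over left-out libraries the knockout against control in total RNA ranged from −0.38 to 3.76 for mt-Nd1, −0.60 to 4.29 for mt-Nd2, −0.47 to 3.58 for mt-Nd4, −0.24 to 3.97 for mt-Nd5, −0.18 to 4.67 for mt-Nd6 and −0.49 to 2.75 for mt-Cytb. For mt-Nd2 it ranged from −2.71 to 2.20 between knockout fractions and from −1.97 to 2.97 in the difference between genotypes. The summed mRNAs in control granules against control total RNA, −0.30, were −0.43 by library size alone, −0.53 by upper quartile, −1.43 with the GC trend removed and −0.22 as a mean of log2 values. The rRNA to mRNA ratio by the median of mRNAs was 0.49 there and 1.98 between granules of the 2 genotypes, against 0.28 and 1.47. Depth limits little here: 3 counts in the smallest library are 0.0446 CPM.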

Other observations

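RNAs that are kept out of the bulk cytosol were described in knockout and control granules from lists of the same kind. Malat1, a long noncoding RNA of nuclear speckles, rose from 699 and 679 scaled CPM in control granules to 2410 and 3210 in knockout granules (log2 fold change 2.03, SE 0.43, adjusted p = 0.0297 by edgeR). It was the only 1 of 7 tested nuclear RNAs called in this comparison. Of 20 mRNAs translated at the endoplasmic reticulum 3 were called higher (Col1a1, Col3a1 and Fbn1) and 0 lower, beside 9.45% of all tested genes called and 5.79% called higher. Col3a1, a fibrillar collagen, rose from 148 and 119 to 416 and 446, and Fbn1, a microfibril protein, rose from 56.6 and 48.1 to 158 and 133. In total RNA Fbn1 was also higher in the knockout, at 170 and 135 against 54.2 and 71.4. Col3a1 was lower there, at 238 and 211 against 303 and 266, and so was Col1a1, at 1270 and 1230 against 1880 and 1490. Their part in the levels of the mitochondrial RNAs was not tested.

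In knockout granules compared with knockout total RNA, mRNAs of the mitochondrial chaperone Hspa9 and of Hspe1, the cochaperonin of Hspd1, fell, Hspa9 from 2160 and 1640 to 654 and 647 scaled CPM and Hspe1 from 211 and 155 to 83.1 and 85.8. Pde12, which trims A tails of mitochondrial RNA, fell from 87.9 and 40.3 to 20.6 and 19.2. Mrps18b fell in granules of both genotypes, from 44.0 and 34.5 to 15.3 and 16.7 in the control and from 41.7 and 41.5 to 8.24 and 7.21 in the knockout.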
